A study of Mus musculus with 6 samples.

Results

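The ADAM family (a disintegrin and metalloprotease) comprises membrane-anchored cell surface proteins, several of which cut other membrane proteins while others act in adhesion. The members were chosen by symbol, Adam followed by a number and at most 1 letter, which leaves out the secreted Adamts proteases. This gave 34 genes of the 34144 gene rows, and 33 of them had enough reads to be tested.

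RNA from testis was sequenced from 3 Nsun7 knockout and 3 wild-type C57Bl/6J mice, all 3 months old. Nsun7 belongs to the NSUN family of RNA methyltransferases, and the series title links it to the columns of the sperm tail and to transcripts of elongated spermatids. The protocol names decapsulated testes whose tubules were used for RNA, with 1 library per mouse. The knockout allele, the deleted exons and whether littermates served as controls are not described in the labels.

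An ADAM protein is made with a prodomain, a metalloprotease domain, a disintegrin domain and further extracellular parts. In an active protease a short stretch with 3 histidines holds a zinc ion, whereas many sperm ADAMs have lost that stretch and act without cutting. In mouse, ADAM1A is a partner of ADAM2 in the endoplasmic reticulum of germ cells, and ADAM3 on the sperm surface is required for sperm to enter the oviduct and to bind the zona pellucida. ADAM10 and ADAM17 are general sheddases, which release receptors, growth factors and adhesion molecules from cells. ADAM11, ADAM22 and ADAM23 lack protease activity and are best known in the nervous system, where ADAM22 and ADAM23 bind LGI proteins.

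The coding bases of the zinc-binding stretch divide the family into members with and without its pattern, so examples of both kinds are shown. Capitals mark the 14 positions fixed in the search, among 36 bases read in frame on the coding strand: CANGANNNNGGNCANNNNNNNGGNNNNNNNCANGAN. The bases come from GENCODE M21 transcripts of GRCm38, a different build from the authors' mm39, and lie in coding exons. Adam17 stands for the general sheddases (chr12:21336729-21336764, minus strand) and Adam21 for the sperm members with the stretch (chr12:81559919-81559954, minus strand). Adam1a (chr5:121520086-121520121, minus strand) and Adam1b (chr5:121501934-121501969, minus strand) are neighbours with the same 36 bases. Adam29 (chr8:55872371-55872406, minus strand) and Adam7 (chr14:68516611-68516646, minus strand) each miss 1 fixed base.
Adam17: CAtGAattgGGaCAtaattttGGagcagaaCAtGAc
Adam21: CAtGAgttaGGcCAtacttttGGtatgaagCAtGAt
Adam1a: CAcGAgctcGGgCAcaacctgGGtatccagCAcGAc
Adam1b: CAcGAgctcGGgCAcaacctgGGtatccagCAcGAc
Adam29: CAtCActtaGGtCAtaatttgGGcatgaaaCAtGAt
Adam7: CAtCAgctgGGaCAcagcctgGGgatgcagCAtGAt

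Adam29 and Adam7 carry the substitution G4C, counted from 1 at the 5′ end of the stretch, with the searched base first. Of the 33 members in that annotation, 20 held all 14 fixed bases and 13 did not. Those without it were Adam2, Adam3, Adam4, Adam5, Adam6a, Adam6b, Adam7, Adam11, Adam18, Adam22, Adam23, Adam29 and Adam32. Among 21877 protein-coding genes, 37 (0.169%) had the same letters somewhere in a coding transcript, in any frame of the sense strand. A match describes letters only and shows no activity.

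Before the family, the targeted gene was read in every library. Nsun7 stood at 18.0, 17.8 and 25.2 CPM (library-scaled counts, set to the same scale in each library) in knockout mice 1 to 3, against 36.6, 35.7 and 37.2 CPM in wild-type mice 1 to 3. Its log2 fold change was -0.84 (SE 0.147, adjusted p = 0.0160, edgeR's quasi-likelihood test with Benjamini-Hochberg adjustment), and the adjusted p was 0.0556 to 0.0930 without knockout mouse 2 or any 1 wild-type mouse. Libraries held 23480448 to 28558865 counts. Wild-type mouse 1 stood apart in 3 ways. It held 649 counts of the epididymal gene Crisp1, against 0 to 4 in the other 5 libraries. Rmrp took 33.3% of its TPM (transcript abundance per length, scaled to 1 total), against 11.4% to 17.5% in knockout mice and 22.2% and 15.7% in wild-type mice 2 and 3. The gap between the length and the effective length of long transcripts, which follows the mean fragment length, was 153.2 bases in wild-type mouse 1, against 174.5 to 177.5 bases in knockout mice and 166.7 and 174.1 bases in wild-type mice 2 and 3. Knockout mouse 3 stood apart in the family itself, as described with the sperm surface members.

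The most abundant members per length in these testes were those of sperm proteins. Adam3 averaged 167.3 ± 47.8 TPM in knockout and 137.9 ± 21.7 TPM in wild-type testes (SD, n = 3 each). Adam2, which encodes fertilin beta, averaged 172.0 ± 51.6 TPM in knockout and 123.5 ± 37.1 TPM in wild-type testes. By the mean over all 6 libraries the order ran Adam3 (152.6 TPM), Adam2 (147.7 TPM), Adam5 (98.1 TPM), Adam32 (67.3 TPM), Adam1b (50.2 TPM), Adam18 (46.3 TPM) and Adam1a (46.0 TPM). A step followed to Adam6a (21.1 TPM), Adam15 (19.1 TPM) and Adam30 (18.3 TPM). The general sheddases Adam17, Adam9, Adam10 and Adam8 came next with Adam11, between 11.2 and 18.0 TPM. The lowest members were Adam26b, Adam34l, Adam28 and Adam7, all under 1 TPM.

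Neighbours in this order mostly overlapped in their ranges across libraries. Of 33 neighbouring pairs, the ranges of the 3 libraries were separate in 3 pairs among knockout mice and in 5 among wild-type mice. Both genotypes separated Adam1a from Adam6a and Adam29 from Adam26b, 2 pairs in all. Thus Adam3 and Adam2 exchange places between genotypes without a difference beyond their spread. Ranges across libraries leave out the order within each library. Adam2 lay above Adam5, Adam5 above Adam32 and Adam32 above Adam1b in every library, while the order of Adam3 and Adam2 changed between libraries. TPM sets every library to 1 total, so each member's TPM also moves with the share taken by Rmrp.

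**Figure D1:**
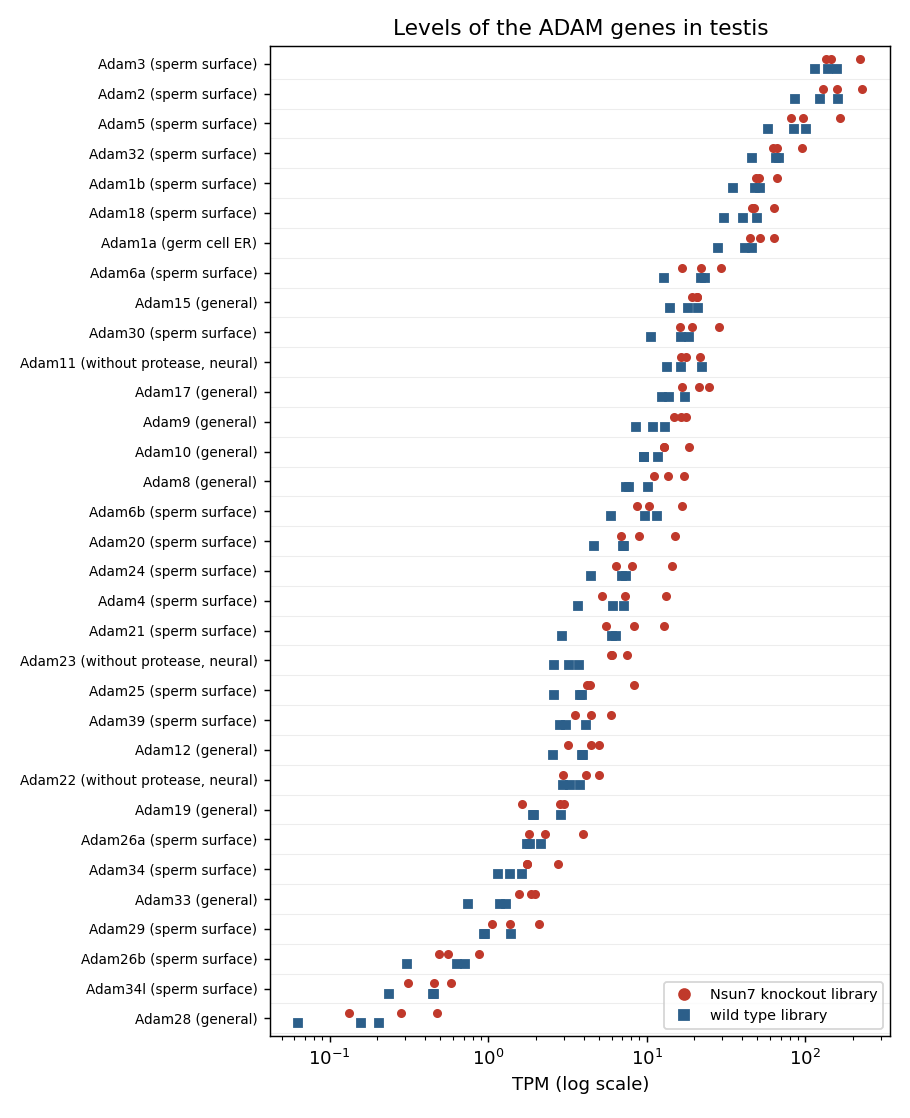
Level of each of the 33 tested ADAM genes in each library, in TPM on a log axis, ordered by mean TPM; red circles are the 3 Nsun7 knockout libraries and blue squares the 3 wild-type libraries, with the role group in brackets. Adam3 and Adam2 lie highest, a step separates Adam1a from Adam6a, and Adam26b, Adam34l and Adam28 lie under 1 TPM.

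Most ADAM RNA in these testes came from members without the zinc-binding stretch. They held 68.8%, 70.2% and 72.4% of summed ADAM TPM in knockout mice 1 to 3, against 71.4%, 70.6% and 73.3% in wild-type mice 1 to 3, and the genotypes overlapped. Gene structure also divides the family. A single coding exon was annotated for 15 members, among them Adam1a, Adam1b, Adam6a, Adam20, Adam21 and Adam30, and several coding exons for 18. The highest mean level was 50.2 TPM among members with 1 coding exon (Adam1b) and 152.6 TPM among those with several (Adam3). Chromosome 8 carries 13 members, chromosome 12 carries 5, and chromosomes 5 and 14 carry 3 each. The 3 on chromosome 5 are Adam1a, Adam1b and Adam22, and Nsun7 lies on that chromosome too. Adam34l had no entry in the annotation used.

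The comparison of genotypes found no member past an adjusted p of 0.05. edgeR's quasi-likelihood test called 0 of 33 members, where it called 0.567% of all tested genes (119 of 21002; 0.233% higher and 0.333% lower in knockout). At an unadjusted p under 0.05 there were 4 members, Adam23, Adam11, Adam17 and Adam21, beside 8.39% of all genes. DESeq2 called 1 member, Adam23, beside 1.01% of all genes, and limma voom called 0, beside 0.486%. CPM did not overlap between genotypes in 5 members, Adam23, Adam11, Adam17, Adam9 and Adam10, beside 14.3% of all genes. Of these, 4 were higher in knockout, as were 7.38% of all genes. The log2 fold change was above 0 in 26 members and below 0 in 7, with a median of 0.16, while the median over all tested genes was 0.01. On log2(TPM + 1) all 33 were above 0, where the median of all genes was itself shifted to 0.24. After each library's median was removed from log2(TPM + 0.1), 22 were above 0 and 11 below.

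**Figure D2:**
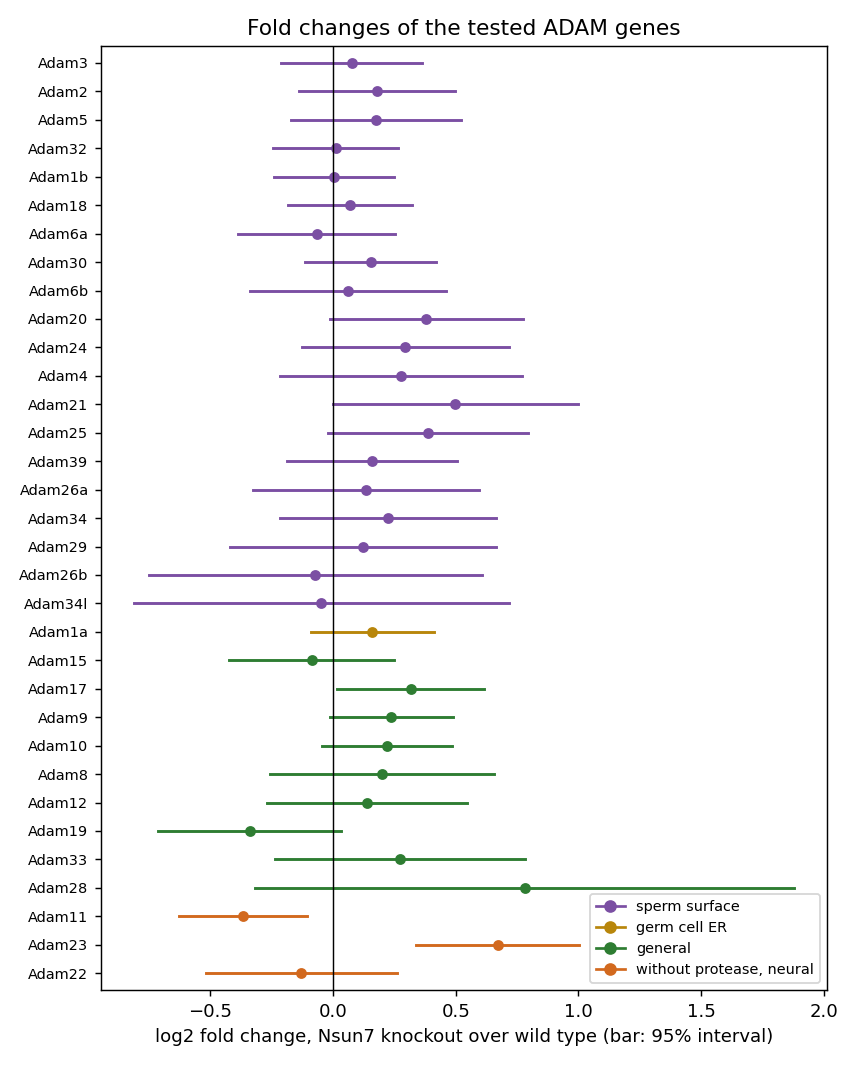
Log2 fold change of each tested ADAM gene, Nsun7 knockout over wild type, from edgeR's quasi-likelihood fit on 3 against 3 libraries; points are estimates, bars 95% intervals and colours role groups, with members ordered by role and mean TPM. Most points lie just above 0 with intervals that cross it, while the intervals of Adam23 (0.34 to 1.00), Adam17 (0.02 to 0.62) and, barely, Adam21 (0.00014 to 1.00) lie above 0 and that of Adam11 below it (-0.63 to -0.11).

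The sperm surface group took in 21 members known mainly from testis, sperm or epididymis, of which 20 were tested and 0 called. Their log2 fold changes ran from -0.07 to 0.50 with a median of 0.14, above 0 in 17 and below 0 in 3 (Adam6a, Adam26b and Adam34l). Adam3 had 249.6, 270.5 and 339.5 CPM in knockout mice 1 to 3, against 266.6, 263.0 and 285.8 CPM in wild-type mice 1 to 3. Knockout mouse 3 was the highest library and knockout mouse 1 the lowest, so the genotypes overlapped. The fold change of Adam3 was 0.08 on the log2 scale, with a 95% interval of -0.21 to 0.36.

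Adam2, the partner of ADAM1A and ADAM3 in complexes, had 220.9, 254.9 and 317.6 CPM in knockout mice, against 208.4, 228.3 and 264.6 CPM in wild-type mice. Again knockout mouse 3 was highest, wild-type mouse 1 lowest, and the ranges overlapped. Its log2 fold change was 0.18 (95% interval -0.14 to 0.50). Adam5 had 148.1, 160.8 and 234.9 CPM in knockout mice, against 143.8, 164.6 and 173.7 CPM in wild-type mice. One knockout library lay above all others here while the remaining 2 lay within the wild-type range.

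Adam32 had 110.9, 111.5 and 134.4 CPM in knockout mice, against 115.1, 122.7 and 116.5 CPM in wild-type mice. Adam18 had 81.4, 74.8 and 87.9 CPM in knockout mice, against 71.3, 77.2 and 84.0 CPM in wild-type mice. Both overlapped, with log2 fold changes of 0.01 for Adam32 and 0.07 for Adam18. Adam1b, whose protein is found on the sperm surface, had 136.2, 120.5 and 139.9 CPM in knockout mice, against 127.4, 137.8 and 130.7 CPM in wild-type mice. The log2 fold change of Adam1b was 0.00 (95% interval -0.24 to 0.25).

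Adam6a, from the immunoglobulin heavy chain locus, had 33.9, 40.6 and 46.7 CPM in knockout mice, against 35.2, 47.5 and 44.3 CPM in wild-type mice. Adam30 had 32.9, 34.8 and 40.5 CPM in knockout mice, against 31.2, 33.3 and 32.8 CPM in wild-type mice. Neither separated the genotypes, with log2 fold changes of -0.07 for Adam6a and 0.15 for Adam30. Adam1a, the member of the endoplasmic reticulum, had 125.6, 133.0 and 139.8 CPM in knockout mice, against 107.1, 126.2 and 123.3 CPM in wild-type mice. Only knockout mouse 1 fell within the wild-type range of Adam1a, at a log2 fold change of 0.16 (95% interval -0.09 to 0.41, adjusted p = 0.689, edgeR).

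The upper end of the sperm surface group was made of members with 1 coding exon. Adam21 had the group's largest log2 fold change at 0.50 (95% interval 0.00014 to 1.00, adjusted p = 0.594, edgeR). It had 12.9, 17.7 and 23.3 CPM in knockout mice, against 9.15, 14.97 and 14.02 CPM in wild-type mice. Adam25, with 0.39, and Adam20, with 0.38, followed on the log2 scale. Adam25 encodes a testase, a name given to several testis-specific metalloproteases, and had 8.69, 8.29 and 13.4 CPM in knockout mice, against 7.29, 8.37 and 7.63 CPM in wild-type mice. In all 3 genes knockout mouse 3 was above the other 5 libraries. Over single-exon members the median log2 fold change was 0.16, against 0.17 over members with several coding exons. Members with the zinc-binding stretch had a median of 0.21 and members without it 0.07.

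The sperm surface members stood highest in 1 knockout library and, by their median, lowest in 1 wild-type library. Knockout mouse 3 was the highest of 6 libraries in 17 of the 20 tested, and wild-type mouse 1 was the lowest in 11. Summed over the group, the level was 1111, 1180 and 1500 CPM in knockout mice 1 to 3, against 1091, 1189 and 1234 CPM in wild-type mice 1 to 3. Centred on the mean of the 6 libraries, the median member stood at -0.16, -0.03 and 0.34 on the log2 scale in knockout mice, against -0.23, 0.01 and -0.02 in wild-type mice. Without knockout mouse 3 the group split into 10 members above 0 and 10 below, with a median of -0.02. Without knockout mouse 3 and wild-type mouse 1 there were 6 above and 14 below, with a median of -0.06. These 2 libraries are the extremes of the same values, so leaving them out lowers the fold changes by construction.

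Cell type markers also differed between libraries, in these and in others. In knockout mouse 3, elongating spermatid markers had a median of -0.36 on the centred log2 scale, macrophage markers -0.36, peritubular myoid markers -0.34, Sertoli cell markers -0.32, pachytene spermatocyte markers -0.18 and round spermatid markers -0.02. Leydig cell and endothelial markers stood at -0.04 there, spermatogonia markers at 0.05 and neuron and glia markers at 0.13. In wild-type mouse 1 the medians were 0.21 for elongating spermatid markers and 0.20 for pachytene spermatocyte markers. Peritubular myoid markers stood at 0.19 in that library, spermatogonia markers at 0.18 and Sertoli cell markers at 0.08. Below 0 were Leydig cell (-0.29), endothelial (-0.27), macrophage (-0.19), neuron and glia (-0.07) and round spermatid markers (-0.06). Shifts of that size or larger occurred elsewhere, with 0.86 for Leydig cell markers and 0.56 for macrophage markers in knockout mouse 1. In wild-type mouse 3 there were -0.68 for Leydig cell markers and 0.32 for elongating spermatid markers. Elongating spermatid markers summed to 5140 to 7231 CPM in knockout mice, against 6076 to 7968 CPM in wild-type mice. None of the 6 genes was at 0 counts in either genotype, and 1 of 6 fold changes was above 0. None was called by edgeR, DESeq2 or limma voom, which called 0.567%, 1.01% and 0.486% of all genes. An unadjusted p under 0.05 was found for 3 of the 6, beside 8.39% of all genes (edgeR). Round spermatid markers summed to 422.2 to 465.7 CPM in knockout mice, against 400.1 to 483.5 CPM in wild-type mice, with 4 of 6 above 0. The part of cell makeup, or of fragment length in wild-type mouse 1, in the ADAM values was not tested. In bulk RNA of this kind fewer cells of a type and less RNA per cell cannot be told apart.

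**Figure D3:**
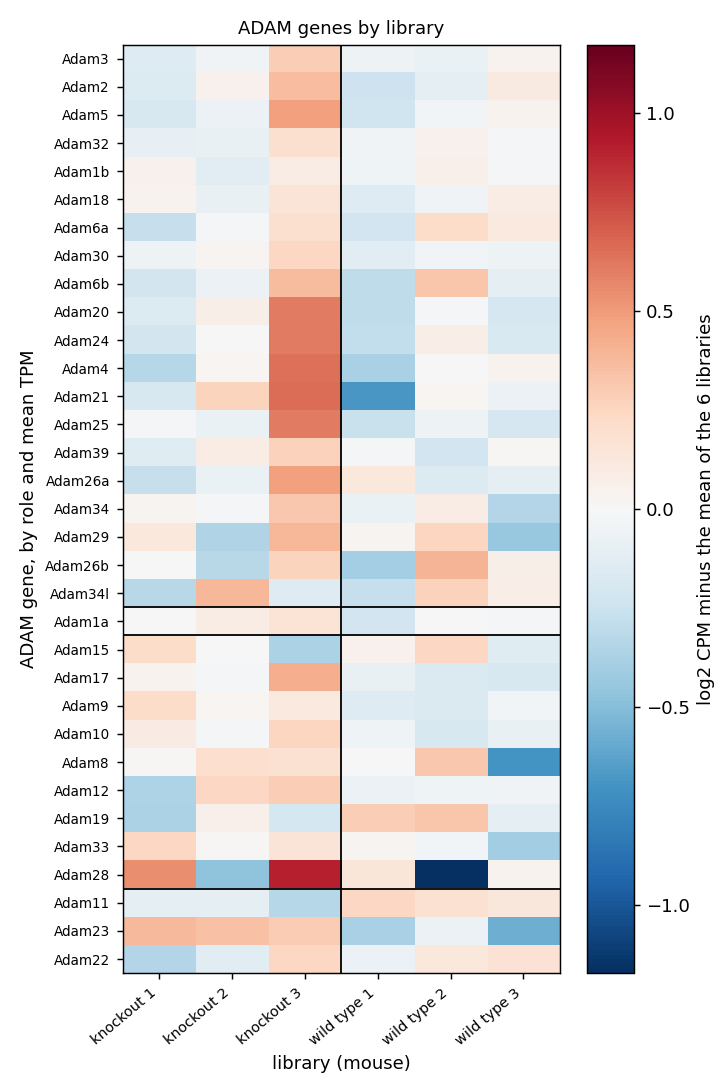
Log2 CPM of each tested ADAM gene in each library minus the mean of the 6 libraries; columns are knockout mice 1 to 3 and then wild-type mice 1 to 3, rows are genes by role group (sperm surface, Adam1a, general sheddases, members without protease) and mean TPM. Knockout mouse 3 is the highest of 6 for 17 of the 20 sperm surface members, while Adam23 is red in all 3 knockout columns and Adam11 blue.

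The general sheddase group held 9 members and 0 calls, with 7 log2 fold changes above 0, 2 below (Adam15 and Adam19) and a median of 0.22. Its median was 0.16 without knockout mouse 3, with 8 of 9 above 0, and 0.20 without both that mouse and wild-type mouse 1. Adam17, which encodes the enzyme that releases tumour necrosis factor and ligands of the epidermal growth factor receptor, had 27.6, 26.4 and 35.9 CPM in knockout mice, against 25.2, 23.7 and 23.4 CPM in wild-type mice. All knockout values lay above all wild-type values, with knockout mouse 3 farthest out. The log2 fold change was 0.32 (95% interval 0.02 to 0.62, adjusted p = 0.578, edgeR), and 0.16 without knockout mouse 3.

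Adam9, another sheddase, had 48.2, 42.3 and 45.1 CPM in knockout mice, against 37.3, 37.0 and 40.6 CPM in wild-type mice. Adam10, the sheddase of Notch receptors and cadherins, had 32.4, 29.7 and 35.9 CPM in knockout mice, against 29.2, 26.6 and 28.6 CPM in wild-type mice. Neither gene overlapped between genotypes, and their log2 fold changes were 0.24 for Adam9 (adjusted p = 0.609) and 0.22 for Adam10 (adjusted p = 0.648, both edgeR). Adam15 had 40.5, 35.1 and 27.1 CPM in knockout mice, against 36.2, 41.3 and 31.6 CPM in wild-type mice, and overlapped throughout. Adam8 averaged 20.8 ± 1.41 CPM in knockout and 18.1 ± 6.06 CPM in wild-type mice, the wild-type spread coming from 11.7 CPM in mouse 3. Of the lower members, Adam19 had a log2 fold change of -0.34, Adam12 of 0.14 and Adam33 of 0.27, with adjusted p of 0.630 to 0.826 by edgeR.

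Adam28 had the largest fold change of the family and the fewest counts of the tested members. It held 17, 8 and 28 counts in knockout mice, against 11, 4 and 12 counts in wild-type mice. The genotypes overlapped, and the log2 fold change of 0.78 had a 95% interval of -0.32 to 1.88. Adam28 is expressed in lymphocytes and in the epididymis. Adam7, an epididymal member, had 0, 1 and 0 counts in knockout mice, against 56, 0 and 0 counts in wild-type mice. Its 56 counts came from wild-type mouse 1, the library that also held 649 counts of Crisp1. Of 10 epididymal marker genes, 5 were at 0 in every library (Lcn5, Lcn8, Lcn9, Lcn10 and Ovch2), and the list summed to 0.129 to 0.262 CPM in knockout mice, against 30.1, 0.155 and 0.116 CPM in wild-type mice 1 to 3. Crisp1 alone held 29.4 CPM of the sum in wild-type mouse 1, so that sum is almost wholly 1 gene.

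**Figure D4:**
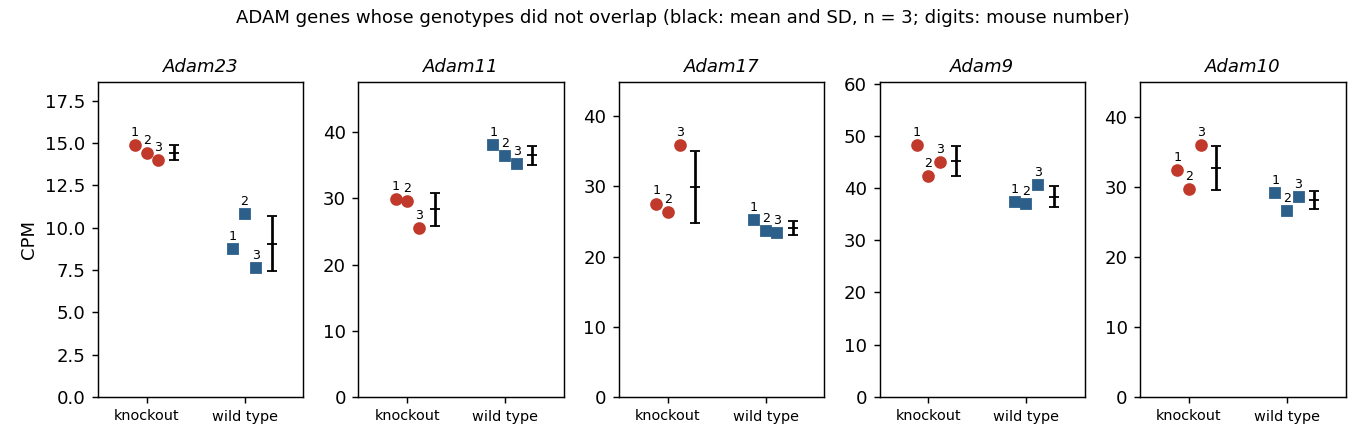
CPM of the 5 ADAM genes whose genotypes did not overlap, 1 panel per gene with its own axis from 0; red circles are knockout mice, blue squares wild-type mice, digits mouse numbers, and black bars the mean and SD of 3. Adam23, Adam17, Adam9 and Adam10 lie higher in all 3 knockout mice and Adam11 lower, with the widest gap for Adam23.

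The members without protease activity gave the 2 smallest p-values of the family, in opposite directions. Adam23 had 14.9, 14.4 and 14.01 CPM in knockout mice, against 8.74, 10.8 and 7.63 CPM in wild-type mice. Every knockout value lay above every wild-type value, and the means were 14.4 ± 0.434 CPM in knockout and 9.06 ± 1.62 CPM in wild-type mice (SD, n = 3 each). The log2 fold change was 0.67 (95% interval 0.34 to 1.00, adjusted p = 0.0928, edgeR), which missed the threshold. A 2-sided exact permutation test on CPM gave p = 0.1, the smallest that 3 against 3 allows. Full separation of the genotypes fixes that value, so it adds nothing to the separation.

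The call of Adam23 depended on the tool, on the low-count filter and on whether mouse number entered the fit. DESeq2 gave an adjusted p of 0.0218 and edgeR without a low-count filter 0.0481, a setting that called 0.592% of all genes. With the mouse number as a replicate block edgeR gave 0.0130. The value was 0.0876 with limma voom and 0.169 with limma on log2(TPM + 1). Leaving out 1 mouse at a time kept the log2 fold change between 0.56 and 0.81, with adjusted p of 0.0930 to 0.432. Without knockout mouse 3 and wild-type mouse 1 together the log2 fold change was 0.67. Markers of neurons and glia, among the cells known for Adam23, summed to 34.2 to 42.7 CPM in knockout and 36.6 to 39.4 CPM in wild-type mice, with 0 of 5 called by edgeR, DESeq2 or limma voom, 1 with an unadjusted p under 0.05 and 3 above 0. Leydig cell markers rose with the knockout in 2 of 7 genes (Hsd3b1 and Hsd17b3, edgeR), and all 7 fold changes were above 0. DESeq2 called 3 of these markers and limma voom 2, and 4 had an unadjusted p under 0.05 (edgeR). Over all genes, edgeR called 0.567%, DESeq2 1.01% and limma voom 0.486%, and 8.39% had an unadjusted p under 0.05 (edgeR). The Leydig cell markers summed to 4820, 2880 and 2147 CPM in knockout mice, against 2837, 2253 and 1693 CPM in wild-type mice. The part of these cells in the Adam23 values was not tested.

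Adam11 had lower values in knockout mice without passing the test, at 30.0, 29.7 and 25.5 CPM in knockout mice, against 38.1, 36.5 and 35.2 CPM in wild-type mice. All 3 knockout mice were below all 3 wild-type mice, at a log2 fold change of -0.37 (95% interval -0.63 to -0.11, adjusted p = 0.382, edgeR). On log2(TPM + 1), where the median of all genes was 0.24, the value for Adam11 was 0.12, and on log2(TPM + 0.1) centred on each library's median it was -0.20. Adam22 averaged 5.94 ± 1.254 CPM in knockout and 6.51 ± 0.550 CPM in wild-type mice and overlapped.

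Transcript estimates were available for 33 members, with 163 transcripts matched and 74 tested. edgeR called 0 of them, beside 0.0272% of all tested transcripts, and 5 had an unadjusted p under 0.05, beside 4.76% of all. No overlap between genotypes was seen in 12 of the 74, beside 12.2% of all. The main Adam17 transcript, a coding one of 4443 bases, had 19.9, 20.04 and 26.3 CPM in knockout mice, against 13.6, 14.05 and 14.9 CPM in wild-type mice. It took 71.3%, 75.3% and 74.6% of the gene's counts in knockout mice, against 53.5%, 58.8% and 63.2% in wild-type mice. Summed over the 4 Adam17 transcripts longer than 4000 bases, CPM were 19.9, 20.07 and 26.3 in knockout mice, against 13.6, 15.95 and 14.9 in wild-type mice, still separate. A 2540-base Adam17 transcript annotated as a target of nonsense-mediated decay had 1.17, 1.05 and 1.87 CPM in knockout mice, against 6.58, 2.34 and 3.47 CPM in wild-type mice. The genotypes were separate in both transcripts, with log2 fold changes of 0.64 for the coding one (adjusted p = 0.727) and -1.58 for the other (adjusted p = 0.898, both edgeR). For Adam10, 60.7% to 67.0% of counts went to a 2720-base transcript with that same annotation of decay, which was separate at 0.30. The 4593-base coding transcript of Adam10 overlapped, at 0.08, with 11.2, 9.89 and 12.8 CPM in knockout mice, against 10.4, 10.5 and 11.2 CPM in wild-type mice.

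An 8969-base coding transcript of Adam22 had 1.15, 1.01 and 0.650 CPM in knockout mice, against 0.151, 0.0191 and 0.000216 CPM in wild-type mice, with an adjusted p of 0.776 by edgeR. Other long coding forms of Adam22 held reads where this one did not. The 9245-base form had 0, 0 and 1.2 estimated counts in knockout mice, against 0, 35.5 and 43 in wild-type mice, and the 9161-base form had 0.1, 0 and 60.9 in knockout mice, against 27, 0 and 0 in wild-type mice. Summed over the 5 Adam22 transcripts longer than 8000 bases, a sum taken after their values were seen, there were 1.154, 1.006 and 2.63 CPM in knockout mice, against 1.38, 1.41 and 1.67 CPM in wild-type mice, and the genotypes overlapped. The main Adam22 transcript of 2773 bases kept 49.0% to 67.8% of counts in knockout mice, against 53.6% to 65.6% in wild-type mice. The 5102-base coding transcript of Adam11 had a log2 fold change of -0.41, close to that of the gene. For Adam23 a 2889-base transcript annotated as a retained intron took most counts, 44.9% to 60.5% in knockout and 34.3% to 67.1% in wild-type mice. Its log2 fold change was 0.72, and the genotypes were separate. The 6426-base coding transcript was separate too, at 0.52, while the 2655-base coding one overlapped, at 0.70 (adjusted p = 0.932 for all 3, edgeR). A 2117-base Adam5 transcript had 6.72, 8.91 and 2.56 CPM in knockout mice, against 3.68, 1.67 and 2.00 CPM in wild-type mice, and overlapped. Reads shared by overlapping transcripts are divided by estimation, so these values carry an error that counts alone do not show.

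**Figure D5:**
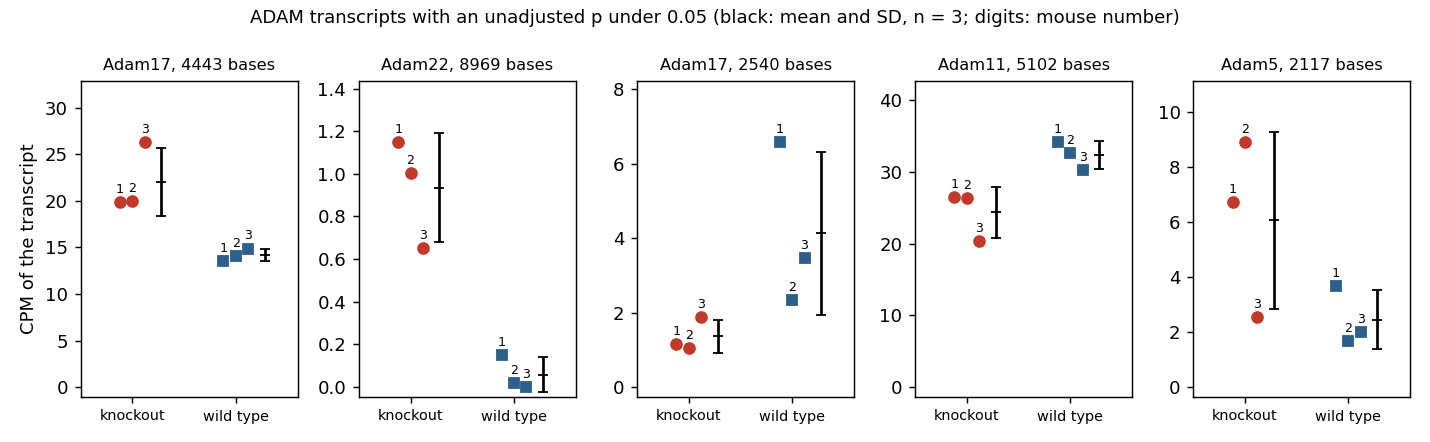
CPM of the 5 ADAM transcripts with an unadjusted p under 0.05, 1 panel per transcript with its own axis; red circles are knockout mice, blue squares wild-type mice, digits mouse numbers, and black bars the mean and SD of 3. The 4443-base Adam17 and 8969-base Adam22 transcripts lie higher in all 3 knockout mice, although the sum of the long Adam22 forms overlaps between genotypes, the 2540-base Adam17 and 5102-base Adam11 transcripts lower, and the 2117-base Adam5 transcript overlaps.

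Several members share sequence, which limits how far their reads can be told apart. Of all 31-base words in their transcripts, Adam6a shared 40.6% with Adam6b, Adam26a shared 39.9% with Adam26b, Adam25 shared 41.3% with Adam39, and Adam1a shared 31.9% with Adam1b and 53.4% with other genes in all. Adam20 shared 36.3% with Adam39 as well, so the values of Adam20, Adam25 and Adam39 are not fully separate from each other. Adam4 shared 24.0% with Gm4787. Adam3, Adam5, Adam9, Adam10, Adam18, Adam29 and Adam32 shared none with any other gene. Exons on the opposite strand overlap Adam3, Adam8, Adam15, Adam17, Adam19 and Adam1a, and no source used here gives the strand setting of the counting. Where Adam17 and Iah1, or Adam15 and 4731419I09Rik, overlap, their reads cannot be told apart without strand. Counting both strands, Adam15 shared 17.1% of its words with 4731419I09Rik, and Adam17 shared 3.82% with Iah1. Exons on the same strand overlap Adam1a (Gm42878 and Mapkapk5) and Adam34 (Gm35629), and there strand would not separate the reads.

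Among the genes around the family, edgeR called 1 of 12 tested sheddase substrates and 1 of 4 LGI genes, described below. Over all tested genes, edgeR called 0.567%, DESeq2 1.01% and limma voom 0.486%, and 8.39% had an unadjusted p under 0.05 (edgeR). Of 15 factors that ADAM3 needs to mature or to reach the sperm surface in mouse, among them the chaperones Clgn, Calr3 and Pdilt, edgeR, DESeq2 and limma voom each called 0, and 2 had an unadjusted p under 0.05. The log2 fold change was above 0 in 7 of them, with a median of 0.00. The smallest p-values belonged to Tpst2, a tyrosine sulfotransferase, at -0.46 (adjusted p = 0.493), 1700029I15Rik at -0.35 and Rnase10, an epididymal secreted protein, at 0.40 (edgeR). Of 6 genes for sperm-egg fusion, 0 were called by edgeR, DESeq2 or limma voom and 0 had an unadjusted p under 0.05, with Izumo1 at 0.19, Tmem81 at 0.19 and Dcst2 at -0.17 on the log2 scale. The value for Dcst2 was 0.14 on log2(TPM + 1), where all genes shifted, and -0.17 on centred log2(TPM + 0.1). Of 18 tested regulators of the sheddases, 0 were called by edgeR or limma voom and 1 by DESeq2, and 4 had an unadjusted p under 0.05, with 7 above 0 and a median of -0.04. The metalloprotease inhibitor Timp1 had 6.06, 2.36 and 2.36 CPM in knockout mice, against 1.04, 1.55 and 1.08 CPM in wild-type mice, at a log2 fold change of 1.54 (adjusted p = 0.156, edgeR). Without knockout mouse 1 the log2 fold change of Timp1 was 0.93, and over all libraries left out in turn the adjusted p was 0.0802 to 0.613 (edgeR). The DESeq2 call was Timp1, with an adjusted p of 0.00948. The proprotein convertase Pcsk6 stood at -0.46 and the ADAM17 inhibitor Timp3 at -0.39, without a call. For Timp3 the value was 0.01 on log2(TPM + 1), with that same shift of all genes, and -0.31 after centring.

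Kitl, whose membrane-bound product is cut by sheddases and feeds the KIT receptor of germ cells, rose in knockout testes. It had 11.2, 10.4 and 13.9 CPM in knockout mice, against 6.70, 5.85 and 6.94 CPM in wild-type mice, and the genotypes were separate. The log2 fold change was 0.87 (95% interval 0.52 to 1.21, adjusted p = 0.0253, edgeR). Of 12 tested sheddase substrates, 3 were above 0 and 2 had an unadjusted p under 0.05, beside 8.39% of all genes (edgeR). Kitl was the 1 call among them, where 0.567% of all genes were called. The call was lost without knockout mouse 3 (adjusted p = 0.0532) or without wild-type mouse 1 (0.120), 2 (0.169) or 3 (0.0852), and on log2(TPM + 1) (0.106). Cdh1 had 3.396, 3.37 and 2.78 CPM in knockout mice, against 7.02, 5.04 and 4.47 CPM in wild-type mice, at -0.79 (adjusted p = 0.164, edgeR), and Notch1 stood at -0.24.

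Of the 4 LGI genes, whose secreted products bind ADAM22 and ADAM23, Lgi2 fell in knockout testes. It held 17, 25 and 15 counts in knockout mice, against 79, 71 and 97 counts in wild-type mice. All knockout counts lay below all wild-type counts, and the log2 fold change was -2.26 (95% interval -2.86 to -1.65, adjusted p = 0.000932, edgeR). On the CPM scale Lgi2 averaged 0.703 ± 0.227 CPM in knockout and 3.36 ± 0.529 CPM in wild-type mice. The call held without each library in turn, with adjusted p up to 0.0115, but not on log2(TPM + 1), at 0.173. Lgi3 stood at -0.60 (adjusted p = 0.526), Lgi1 at 0.64 and Lgi4 at 0.08 (edgeR).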

How the data were processed

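The submitters' processing notes name kallisto 0.50.1 and the build mm39, with which the authors made estimated counts and TPM. The authors deposited whole-number estimated counts and TPM per gene symbol, and estimated counts and TPM per transcript in each sample. The annotation release, like the strand setting, was not given in the sources used here.

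Gene counts and rounded transcript estimates went through edgeR 4.0.16 (R 4.3.3): TMM scaling, filterByExpr (minimum count 10, minimum total 15), robust quasi-likelihood fit with genotype as the 1 term, and Benjamini-Hochberg adjustment over all tested rows at 0.05. CPM are TMM-scaled. Alternatives used DESeq2 1.42.0 and limma 3.58.1. Totals were 23480448 to 28558865 counts per library, and the common biological coefficient of variation was 14.9%. The pipeline was tested on simulated data. The labels do not say whether mice were littermates. The p-values set the difference between genotypes against the spread among these 6 mice within each genotype.

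All members are accounted for. Values in every library are given for the 10 members of highest mean TPM and the 3 of smallest p, and for members chosen after their values were seen. In other lists, the 3 genes of smallest p and every call are named. Members, roles and lists were chosen with earlier results of these data known. Marker lists are given by counts and sums. The names Fimp and Sof1 were not in the table. GENCODE M21 gave chromosomes, exons, transcript names and the printed sequences.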

Additional observations from a re-analysis of the deposited data

How the results depend on the processing

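The number of genes called (119, with 49 higher in knockout) became 180 without the low-count filter, 213 with DESeq2, 61 (44 higher) on log2(TPM + 1), 68 (48 higher) on log2(TPM + 0.1) and 60 (18 higher) after centring the last on each library's median, an alternative chosen after seeing the data. With 1 library left out it ranged from 67 (wild-type mouse 1) to 166, and was 78 for each of the other wild-type mice. The count of ADAM genes was 1 (Adam23) without the filter, with DESeq2 and with the replicate block, and 0 with any 1 library left out. ADAM transcripts had 0 calls under every alternative run. Deviations of same-numbered mice correlated at 0.177, -0.00476 and 0.199, against -0.235 to 0.0565 between knockout and wild-type mice of different numbers. The labels name no pairing, and these values do not settle whether the numbers pair the samples. With the mouse number as a replicate block 331 genes were called, Adam23 had an adjusted p of 0.0130, Timp1 of 0.0353, and Cdh1 passed too (edgeR).

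Signs turned for several members. The median of all genes was 0.24 on log2(TPM + 1) and 0.30 on log2(TPM + 0.1), where, in that order, values were 0.12 and 0.12 for Adam11, 0.20 and 0.21 for Adam15, 0.088 and 0.11 for Adam19, 0.19 and 0.23 for Adam22, 0.086 and 0.22 for Adam26b, 0.070 and 0.20 for Adam34l, 0.23 and 0.24 for Adam6a, 0.0120 and 0.0122 for Timp3, and 0.14 and 0.15 for Dcst2. Centring on each library's median put all 9 back below 0. Centred TPM gave -0.042 for Adam12, -0.0094 for Adam1b, -0.067 for Adam3 and -0.0051 for Adam32. RLE scaling gave -0.0071 for Adam1b and -0.00038 for Adam32, DESeq2 -0.0072 and -0.00031, and no filter -0.0017 for Adam1b. Without wild-type mouse 1 and knockout mouse 3, values were 0.053 for Adam15, -0.046 for Adam18, -0.065 for Adam1b, -0.051 for Adam2, -0.064 for Adam24, -0.036 for Adam26a, -0.040 for Adam29, -0.077 for Adam3, -0.10 for Adam32, -0.16 for Adam4, -0.13 for Adam5 and -0.26 for Adam6b. With 1 library left out, values crossed 0 for Adam15 (-0.24 to 0.052), Adam1b (-0.045 to 0.064), Adam26a (-0.13 to 0.27), Adam26b (-0.27 to 0.14), Adam29 (-0.075 to 0.30), Adam3 (-0.069 to 0.16), Adam32 (-0.092 to 0.053), Adam34l (-0.31 to 0.087), Adam4 (-0.049 to 0.46), Adam5 (-0.063 to 0.29), Adam6a (-0.20 to 0.034), Adam6b (-0.14 to 0.25) and Adam8 (-0.039 to 0.43). The cause of these changes was not tested. Kitl and Nsun7 also lost their calls on centred TPM, at adjusted p of 0.158 and 0.112. Low counts limit Adam28, Adam34l, Adam26b and Adam7.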

Other observations

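Adam7 was 1 of 13 genes with at least 20 counts in wild-type mouse 1 and at least 10 times the sum of the other 5 libraries, a rule chosen after seeing the data. The other libraries had 2, 1 and 5 such genes in knockout mice 1 to 3, and 1 and 2 in wild-type mice 2 and 3. The 13 included the epididymal genes Crisp1 (4, 2 and 0 counts in knockout mice, against 649, 3 and 2 in wild-type mice), Defb22 (4, 2 and 0, against 114, 0 and 0), Defb28 (1, 0 and 0, against 56, 0 and 0) and Rnase12 (0, 0 and 0, against 33, 1 and 1), and also Ltf (1, 2 and 1, against 227, 3 and 2). The largest was the ribosomal pseudogene Rps18-ps6 (4, 4 and 6, against 1066, 17 and 3), and Rps18-ps5 had 0, 9 and 11, against 422, 4 and 6. The rest, with their counts in wild-type mouse 1, were Gm49661 (120), Gm36684 (110), H2-Q1 (72), Cwh43 (62) and Ly6f (38). Adamdec1, an ADAM relative outside the symbol rule, had 0 counts in all 6 libraries.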
